A study of Mus musculus with 18 samples.

Results

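Described here are 8 genes of 27179 in the count table (12798 tested): Nnt, Rab4a, Cln3, Apobr, Olfr56, Chic1, Rell1 and Slc36a1. They were found in the files by their Entrez Gene identifiers, and all 8 passed the filter on low counts. They were chosen by their measured RNA level in Sharpin cpdm thymocytes, which stood far from that in the other mice in both cell fractions, so the Sharpin levels below are a description and carry no test. The choice was also meant to leave out the distal end of chromosome 7, but Cln3 and Apobr lie there.

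RNA was sequenced from sorted CD69+ thymocytes of 3 WT mice, 3 mice labelled Hoil ΔCd4 and 3 labelled Sharpin cpdm. Each mouse gave an MHC I low sample and a more mature MHC I high sample, here the low and the high fraction, which makes 18 samples in 6 groups of 3. LUBAC, the linear ubiquitin chain assembly complex, joins ubiquitin into linear chains that carry signals from immune receptors. HOIL-1 (gene Rbck1) and SHARPIN are components of it. Hoil ΔCd4 mice lose floxed Rbck1 through a Cd4-driven Cre, that is, in the T lineage, whereas in Sharpin cpdm mice no cell type has SHARPIN. The cpdm allele came from C57BL/Ka stock crossed to C57BL/6 for 2 generations, so the loss of SHARPIN and whatever else that stock carried cannot be told apart in these mice. The labels give no ages.

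The 18 libraries held between 10577966 and 16266128 counts. Rbck1 stood at 217 to 268 CPM (counts scaled to library size, TMM-adjusted) in WT and at 0.271 to 8.94 CPM in Hoil samples, and Sharpin RNA at 85.9 to 97.3 CPM in WT and 66.4 to 77.9 CPM in Sharpin samples. H2-K1, an MHC class I gene, separated the fractions, at 157 to 232 CPM over the 9 samples of the low and 1725 to 2118 CPM over those of the high fraction. The summed level of 16 thymocyte markers was 8147 to 10200 CPM, against at most 6.48 CPM for 6 B cell markers, 11.3 CPM for 12 myeloid and dendritic cell markers, 1.67 CPM for 5 erythroid, 16.7 CPM for 7 thymic epithelial and 53.5 CPM for 5 NK and γδ T cell markers. The thymocyte sum was higher in Sharpin (9793 to 10200 CPM) than in WT mice (9046 to 9270 CPM) in the low fraction, as was the NK and γδ T cell sum (33.2 to 48.6 against 22.1 to 31.4 CPM). In Hoil mice the NK and γδ T cell sum also stood above WT, at 33.6 to 39.4 CPM in the low and 39.8 to 53.5 against 26.7 to 34.2 CPM in the high fraction, and so did the thymic epithelial sum in the high fraction (16.2 to 16.7 against 12 to 14.4 CPM). The NK and γδ T cell sum came mostly from Trdc (10.8 to 41.8 CPM) and Sox13 (2.90 to 35.4 CPM). Klrb1c, Gzmb and Ncr1 reached at most 0.445, 0.384 and 0 CPM, and the sort had gated out NK1.1+ and γδ TCR+ cells. The epithelial sum came mostly from Epcam (5.60 to 11.6 CPM) and Ccl25 (3.11 to 6.31 CPM), the other markers reaching at most 0.607 CPM. Neither sum therefore shows such cells to be present. The part of these sums in the results was not tested. By Xist and Ddx3y, all 3 WT mice had the female pattern, while 1 of 3 Hoil and 1 of 3 Sharpin mice did, so sex and genotype are partly confounded.

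The 8 genes do not form one pathway. Nnt encodes nicotinamide nucleotide transhydrogenase, an enzyme of the inner mitochondrial membrane that makes NADPH from the proton gradient, and the C57BL/6J substrain is known for a deletion inside this gene that other C57BL/6 substrains do not share. Rab4a (a small GTPase of early and recycling endosomes), Cln3 (a lysosomal membrane protein lost in a childhood form of neuronal ceroid lipofuscinosis) and Slc36a1 (a proton-coupled amino acid transporter found on lysosomes) belong to the endosome and lysosome system. Apobr (a receptor for apolipoprotein B on leukocytes), Olfr56 (an olfactory receptor) and Rell1 (a membrane protein related to the TNF receptor family member RELT) sit at membranes, and so does Chic1, a cysteine-rich hydrophobic protein encoded on the X chromosome.

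The genes lie at 7 places in the genome (RefSeq positions on GRCm38.p6, the patch release of the mm10 build that the authors mapped to). Nnt is on chromosome 13 (119335527-119409257), Rab4a on chromosome 8 (123805846-123835291), Chic1 on chromosome X (103356403-103409092) and Rell1 on chromosome 5 (63889337-63969020). Slc36a1 (55204322-55236330) and Olfr56 (49134173-49135387) are both on chromosome 11. Cln3 (126571207-126585817, minus strand) and Apobr (126584918-126589125, plus strand) overlap at their 5′ ends on chromosome 7, and 442 bases are exonic in both in GENCODE, which is 11.7% of the Apobr exons and 7.6% of the Cln3 exons. The kit does not mark strand, so reads from these bases cannot be told apart. GENCODE further gives Olfr56 upstream exons, 111 bases of which are also exonic in the interferon-inducible GTPase gene Ifi47, and it lists 2 gene models under the name Nnt.

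RefSeq start windows were available for 6 of the 8 genes, Rab4a and Nnt being without one. The stretches below are shown because Slc36a1 and Cln3, both lysosomal and both lower in Sharpin samples, can be set beside Rell1, which was higher. The first is the region upstream of Slc36a1 outside the gene (chr11:55204090-55204321, plus strand, 232 bases), with CACGTG, the core that lysosomal gene promoters are known to carry, in capitals. The second is a 30-base site upstream of the inner Cln3 start (chr7:126583340-126583369, minus strand), with the same 6 letters in capitals. Unlike the others, this site lies inside its gene, and 195 bases of its 250-base window are annotated as untranslated exon in GENCODE. The third is the region upstream of Rell1 outside the gene (chr5:63969021-63969147, minus strand, 127 bases), with GGGCGG and its reverse complement in capitals.
Slc36a1: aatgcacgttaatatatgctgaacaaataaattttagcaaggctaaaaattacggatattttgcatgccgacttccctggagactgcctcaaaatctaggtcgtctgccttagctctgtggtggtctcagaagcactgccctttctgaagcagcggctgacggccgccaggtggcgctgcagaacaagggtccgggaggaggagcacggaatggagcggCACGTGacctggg
Cln3: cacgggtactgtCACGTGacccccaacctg
Rell1: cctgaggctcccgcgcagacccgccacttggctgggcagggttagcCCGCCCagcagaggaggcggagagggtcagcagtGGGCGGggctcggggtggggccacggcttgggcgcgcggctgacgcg
In the 250 bases before each of 32851 RefSeq starts, CACGTG, which reads the same on both strands, was present in 6.02% of windows, and GGGCGG, on either strand, in 32.7%. The Slc36a1 window held CACGTG 1 time and the inner Cln3 window 2 times. The windows of Rell1, Apobr, Olfr56 and Chic1 and that of the outer Cln3 start held none. Apobr, Olfr56 and Chic1 were also lower in Sharpin samples, and a link between CACGTG and the level was not tested. GGGCGG occurred 4 times in the Rell1 window, 2 of them in the stretch shown, and 2 times in that of the inner Cln3 start.

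Nnt was the gene with a graded level. In WT mice 1 to 3, Nnt stood at 41.7, 47.8 and 39.5 CPM in the low fraction and at 39.1, 46.4 and 43.4 CPM in the high fraction. In Hoil mice the values were 52.0, 63.8 and 63.8 CPM in the low fraction and 63.6, 65.8 and 62.5 CPM in the high fraction, and in Sharpin mice 80.4, 83.0 and 81.1 CPM and 81.2, 85.9 and 85.8 CPM. The 3 genotypes did not overlap in either fraction, with Hoil mice between the other two. The Sharpin group means, 81.5 ± 1.34 (SD, n = 3) and 84.3 ± 2.71 CPM, were 190% and 196% of the WT means of 43.0 ± 4.29 and 43.0 ± 3.64 CPM. In pools of sorted cells such as these, fewer cells with a transcript and less RNA per cell cannot be told apart.

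Among the endosome and lysosome genes, Rab4a stood furthest from WT. Rab4a stood at 13.6, 14.1 and 12.6 CPM in WT samples of the low fraction and at 14.31, 13.05 and 11.93 CPM in WT samples of the high fraction, and at 13.3, 14.6 and 10.5 CPM and 13.36, 11.14 and 12.96 CPM in the corresponding Hoil samples. In Sharpin mice it stood at 1.22, 1.38 and 1.09 CPM in the low fraction and at 1.66, 1.78 and 1.86 CPM in the high fraction samples, from 13 to 28 reads a library. WT and Hoil values overlapped, while the highest Sharpin value lay far under the lowest of the others, and the Sharpin mean was 9.15% of the WT mean in the low fraction and 13.5% in the high fraction. Cln3 and Slc36a1 stood less far from WT. Cln3 ranged from 51.4 to 66.1 CPM over the 6 WT samples, from 42.4 to 71.3 CPM over the Hoil samples and from 14.1 to 22.6 CPM over the Sharpin samples, so Sharpin cells held 30.5% and 33.4% of the WT mean in the low fraction and the high fraction. Slc36a1 ranged from 70.3 to 83.7 CPM in WT, 63.5 to 81.4 CPM in Hoil and 36.8 to 52.0 CPM in Sharpin samples, or 52.6% and 60.9% of the WT mean.

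The receptor genes Apobr and Olfr56 were close to unread in Sharpin mice. Apobr stood at 5.31, 5.18 and 6.02 CPM in WT samples of the low fraction and 10.8, 11.7 and 12.5 CPM in WT samples of the high fraction. In Hoil mice the values were 2.98, 5.02 and 4.75 CPM and 9.94, 8.33 and 12.2 CPM. Sharpin samples of the low fraction held 1, 0 and 2 Apobr reads, and Sharpin samples of the high fraction 8, 7 and 10 reads, or 0.512, 0.445 and 0.714 CPM. Even the highest Sharpin value was thus under the lowest Hoil value. Olfr56, the member with the fewest reads in WT, held 30, 25 and 29 reads in WT samples of the low fraction and 30, 46 and 43 in WT samples of the high fraction, 29, 18 and 21 and 43, 35 and 31 in the Hoil libraries, and 0, 1 and 2 and 1, 0 and 0 in the Sharpin libraries. No Hoil library came near the Sharpin counts.

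With so few reads the size of these differences is loosely bounded. Over the 3 libraries of a group, the WT to Sharpin ratio of Apobr in the low fraction was 70.0 from 241 and 3 reads, with an exact 95% counting interval of 23.7 to 342. For Olfr56 it was 24.4 (8.07 to 121) in the low fraction, from 84 and 3 reads, and 126 (22.2 to 5020) in the high fraction, from 119 and 1 read. These intervals cover counting error only.

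Rell1 was, with Nnt, one of the 2 members that stood higher in Sharpin mice. Rell1 was at 11.97, 9.79 and 11.5 CPM in WT samples of the low fraction and 9.62, 8.97 and 9.52 CPM in WT samples of the high fraction, and at 12.6, 13.6 and 12.7 CPM and 11.1, 13.9 and 8.83 CPM in Hoil samples. In Sharpin mice it was at 26.0, 26.8 and 22.8 CPM in the low fraction and 28.3, 25.4 and 23.8 CPM in the high fraction samples, 227% and 276% of the WT mean. Every Sharpin sample lay above every sample of the other genotypes, and the WT and Hoil samples overlapped in the high fraction only.

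Chic1 showed the order of Nnt upside down. In the low fraction it stood at 6.53, 5.37 and 8.13 CPM in WT, 3.70, 4.07 and 3.66 CPM in Hoil and 1.08, 1.12 and 1.34 CPM in Sharpin mice. In the high fraction it stood at 7.92, 5.27 and 7.10 CPM in WT, 4.86, 5.53 and 4.13 CPM in Hoil and 1.92, 1.53 and 1.14 CPM in Sharpin mice. The 3 genotypes did not overlap in the low fraction, while in the high fraction the highest Hoil sample lay above the lowest WT sample. Chic1 is X-linked and the mice differ in sex. Against 5.27 to 8.13 CPM in the 6 WT samples, all of the female pattern, the 1 female Hoil mouse had 3.66 and 4.13 CPM and the 1 female Sharpin mouse 1.12 and 1.53 CPM in its low and high fraction, and with 1 such mouse each the part of sex was not tested.

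**Figure D1:**
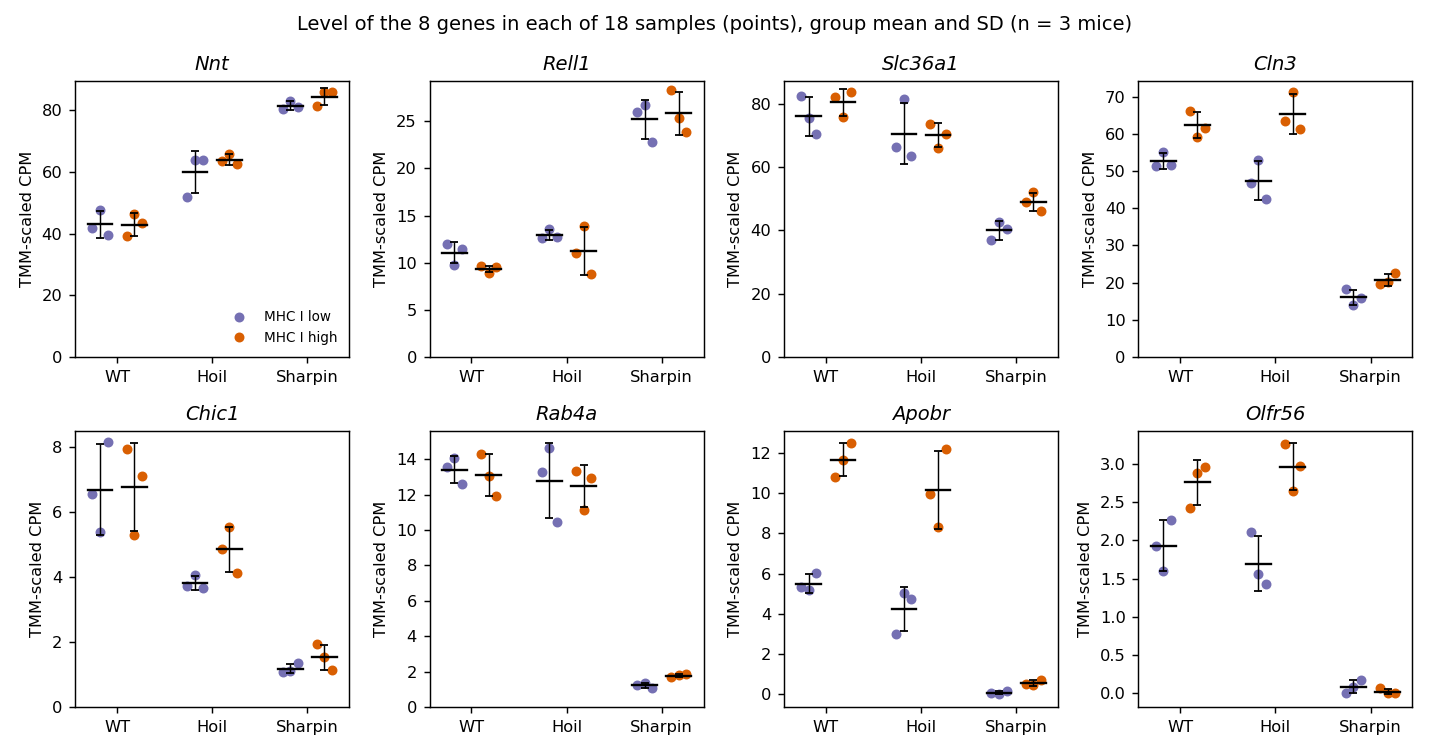
Level of each of the 8 genes in TMM-scaled CPM (linear axis) by genotype, with a point for each of the 18 samples, MHC I low in purple and MHC I high in orange, and bars for the mean and SD of the 3 mice in a group. All 6 Sharpin samples sit apart from the other 12 in each panel, above them for Nnt and Rell1 and below them for the other 6 genes, and Hoil samples sit between for Nnt.

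Per kilobase of counted length, which allows genes to be compared, the order of levels in WT samples of the low fraction was Cln3 (20.1 ± 0.782 CPM per kb, SD, n = 3), Slc36a1 (14.4 ± 1.16), Nnt (12.2 ± 1.22), Rab4a (9.50 ± 0.533), Rell1 (3.42 ± 0.355), Apobr (1.53 ± 0.126), Olfr56 (1.00 ± 0.173) and Chic1 (0.902 ± 0.187 CPM per kb). The ranges of mean and SD overlapped for Slc36a1 and Nnt, and for Olfr56 and Chic1. Within each of these libraries, however, Slc36a1 stood above Nnt and Olfr56 above Chic1. In Sharpin samples of the low fraction Nnt led at 23.1 ± 0.379 CPM per kb, Rell1 (7.78 ± 0.645) and Slc36a1 (7.58 ± 0.561) did not differ beyond their spread, Cln3 followed at 6.12 ± 0.788 CPM per kb, and Rab4a at 0.869 ± 0.103 CPM per kb stood above Chic1 (0.159 ± 0.0188), Olfr56 and Apobr.

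On the log2 scale of the limma fit, the Sharpin minus WT difference in the low fraction and the high fraction was 0.94 (SE 0.0735) and 0.98 for Nnt, 1.19 (SE 0.125) and 1.44 for Rell1, -0.93 (SE 0.0797) and -0.73 for Slc36a1, -1.73 (SE 0.0884) and -1.58 for Cln3, and -2.46 (SE 0.214) and -2.15 for Chic1. It was -3.34 (SE 0.154) and -2.79 for Rab4a, -5.55 (SE 0.286) and -4.32 for Apobr, and -3.89 (SE 0.399) and -5.08 for Olfr56, the last 2 depending on the prior count because of their few reads. The median size of the difference over the 8 genes was 2.09 in the low fraction and 1.87 in the high fraction, against 0.134 and 0.107 over all genes tested, as the choice of the genes fixes. For scale, 12.2% of all genes passed an adjusted p of 0.05 in the low fraction and 8.62% in the high fraction.

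The 8 genes were not the 8 most separated genes. All 6 Sharpin samples lay above the other 12 for 43 genes (0.336% of those tested) and below them for 85 genes (0.664%). In the order set by the smaller of the differences in both fractions, these 128 genes placed Apobr 5th, Olfr56 7th, Rab4a 9th, Chic1 17th, Cln3 23rd, Rell1 32nd, Nnt 39th and Slc36a1 47th. Of the 120 that are not members, 20 lie on distal chromosome 7, from Sbk1 at position 126248397 on, including Dmbt1 (10.28 and 8.34) and Tnfrsf26 (-8.87 and -7.99), which stood further from WT than any member.

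**Figure D2:**
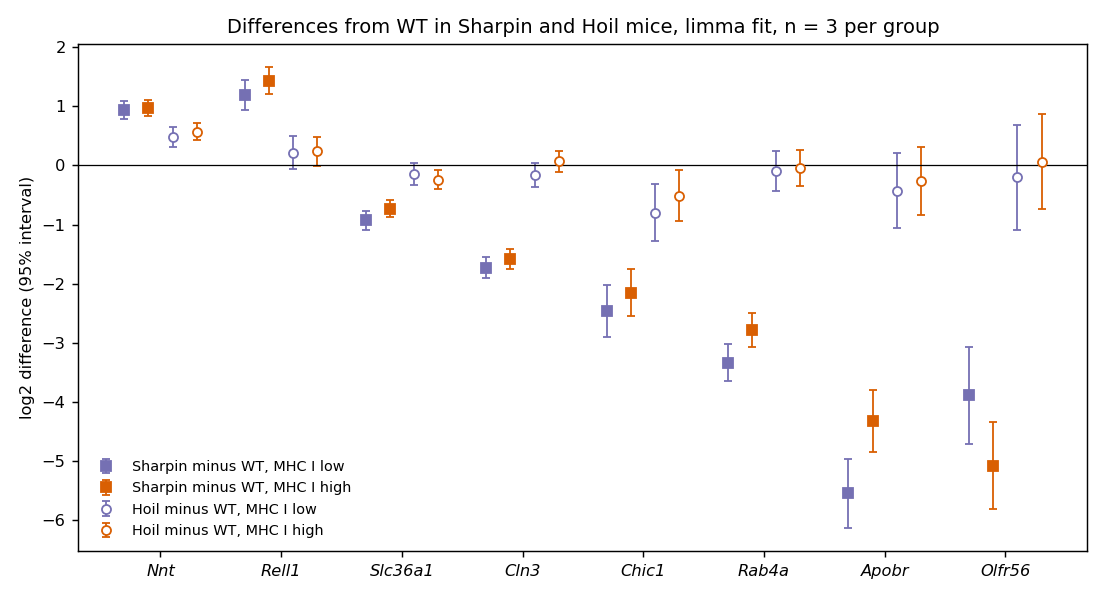
Log2 difference from WT with its 95% interval (limma, n = 3 mice per group) for the 8 genes, Sharpin as filled squares and Hoil as open circles, MHC I low in purple and MHC I high in orange. Sharpin differences run from -5.55 for Apobr to 1.44 for Rell1, while the Hoil intervals exclude 0 in both fractions for Nnt (above) and Chic1 (below) and in MHC I high for Slc36a1.

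The Hoil against WT difference was not part of the choice, but it shares the WT samples with the Sharpin differences that were. Its tests are therefore not independent of the choice. They show which members also differed in Hoil mice, whose T lineage lacks HOIL-1. Any difference in line background cannot be told apart from the loss of HOIL-1 here, and sex only partly. Nnt was the only member that passed the limma test after adjustment, and it passed in both fractions. It was 0.48 log2 units higher than in WT in the low fraction (SE 0.0807, adjusted p = 0.000632) and 0.57 higher in the high fraction (SE 0.0724, adjusted p = 7.09e-06), in 3 of 3 Hoil mice each time. That is 1 of 8 members called in each fraction, where 0.985% of all genes were called in the low fraction and 6.65% in the high fraction. The Sharpin minus Hoil difference of Nnt was 0.46 in the low fraction and 0.41 in the high fraction.

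The other 7 genes did not pass. Chic1 was lower in Hoil mice by -0.80 (95% interval -1.28 to -0.32, adjusted p = 0.103) in the low fraction and by -0.51 (-0.94 to -0.08, adjusted p = 0.143) in the high fraction in limma, and it did pass in the low fraction with edgeR (adjusted p = 0.0457) and DESeq2 (adjusted p = 0.0361). Over 20 alternatives its difference in the low fraction ran from -0.93 to -0.63. Slc36a1 in the high fraction came closest under limma, at -0.25 (-0.41 to -0.09, adjusted p = 0.0549). The intervals for Rab4a, -0.44 to 0.25 in the low fraction and -0.35 to 0.27 in the high fraction, and for Cln3, -0.36 to 0.04 and -0.11 to 0.25, leave out changes of the size seen in Sharpin mice. The same is true of Apobr (-1.06 to 0.21 and -0.83 to 0.32) and Olfr56 (-1.09 to 0.69 and -0.74 to 0.86), whose intervals are wider at their low counts, and of Rell1 (-0.07 to 0.49 and -0.01 to 0.49).

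The change between the fractions (high minus low), a step of maturation, was tested within WT and within Hoil mice. Apobr showed the clearest change. It rose by 1.10 log2 units in WT (SE 0.235, adjusted p = 0.000208) and by 1.27 in Hoil mice (SE 0.289, adjusted p = 0.000557), in 3 of 3 mice of each. Cln3 rose as well, by 0.25 in WT (SE 0.0727, adjusted p = 0.00473) and 0.48 in Hoil mice (SE 0.0893, adjusted p = 4.57e-05), again in every mouse. Rell1 went the other way in WT, with -0.24 (SE 0.103, adjusted p = 0.0483), a call that held in 6 of 20 alternative fits. In all, 3 of 8 members were called in WT, where 54.4% of all genes were, and 2 of 8 in Hoil mice, where 45.3% were. The Cln3 call in WT was lost without WT mouse 1 (0.18, adjusted p = 0.134) or without WT mouse 3 (0.23, adjusted p = 0.0868).

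Olfr56 was higher in the high fraction by 0.52 in WT (adjusted p = 0.188) and 0.78 in Hoil mice (adjusted p = 0.117) under limma, with the same sign in 6 of 6 mice. In Hoil mice Olfr56 did pass under edgeR (adjusted p = 0.0224) and DESeq2 (adjusted p = 0.0388). The difference in change between Hoil and WT was past the threshold for 0 of 8 members in limma, with 0 of 8 at an unadjusted p under 0.05, and 0 under edgeR, where 0.398% of all genes were called in limma. Its values ran from -0.10 for Slc36a1 to 0.29 for Chic1.

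In Sharpin mice the separation held in both fractions, but its size was not equal in both for every gene. Apobr was 2.33 log2 units higher in the high fraction, in 3 of 3 mice, so the rise seen in the other genotypes was present on a much lower level. Rab4a was 0.48 higher in the high fraction of Sharpin mice, in 3 of 3, against -0.07 in WT. Olfr56 changed by -0.67 on 3 and 1 reads, which says little. For Nnt (0.05), Rell1 (0.01), Chic1 (0.36), Slc36a1 (0.30) and Cln3 (0.39) the Sharpin change was within 0.31 log2 units of that in WT. These values come from the contrasts that chose the genes and are given without a test.

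**Figure D3:**
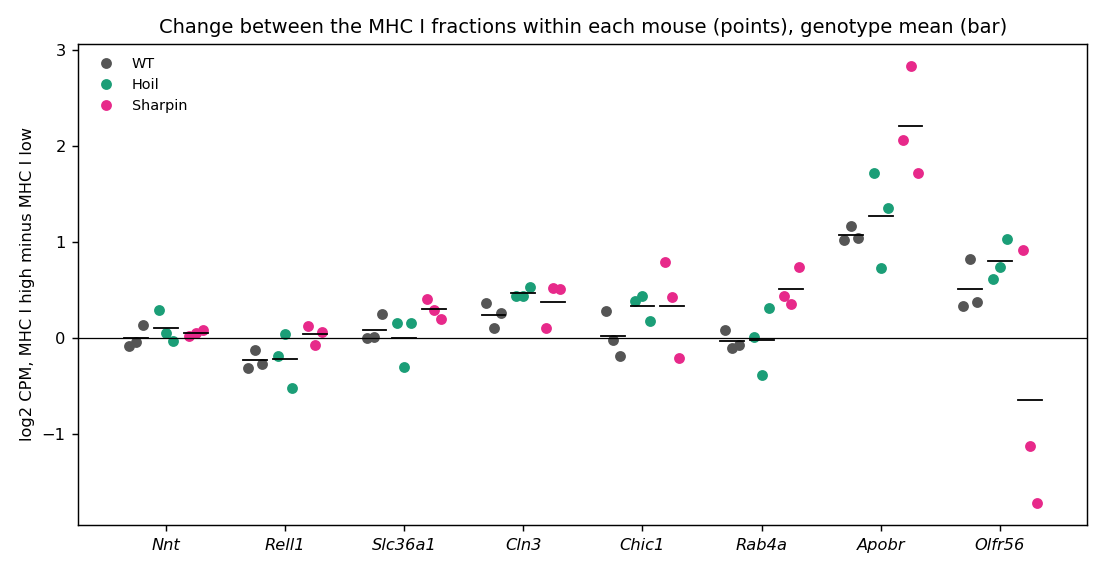
Change in log2 CPM between the fractions (MHC I high minus MHC I low) within each mouse for the 8 genes, with WT points in grey, Hoil in green and Sharpin in pink (3 each) and a black bar at the mean of each genotype. Apobr lies above 0 in all 9 mice, Cln3 does as well, and the Sharpin points of Olfr56 lie on both sides of 0, from libraries with at most 2 reads.

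Levels of tested genes within 500 kb were then set beside each member, to see whether the difference was shared along the chromosome. Over the 7 places, 22 of 87 neighbours (25.3%) passed the Sharpin against WT test in the low fraction, 11 higher and 11 lower, and 24 (27.6%) in the high fraction, 11 higher and 13 lower, beside the 12.2% and 8.62% of all genes. In Hoil against WT, limma called 0 of the same 87 in the low fraction (12 at an unadjusted p under 0.05, 0 in edgeR) and 6 in the high fraction. Over all genes limma called 0.985% and 6.65% there, so the Hoil counts lie near the share over all genes. Widening the window to 1000 kb gave 22.5% and 17.9%. Neighbours share chromosome segments and are not independent of each other.

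The places differed. Near Rab4a, limma and edgeR called 0 of 14 neighbours in either fraction (0 and 2 at an unadjusted p under 0.05), and their differences ran from -0.20 to 0.34 in the low fraction and from -0.55 to 0.33 in the high fraction. Ccsap, which begins 4.68 kb beyond Rab4a, differed by 0.01 and 0.18, and Gas8, the nearest on the other side at -269 kb, by -0.20 and -0.14. Near Nnt, 1 of 7 passed, the zinc finger gene Zfp131 at -0.30 and -0.20, and the gene next to Nnt, Paip1, which encodes a translation factor, was at -0.17 and -0.11. Tmem267, 78.8 kb from Nnt, was at -1.01 and -1.02 without passing (adjusted p = 0.0854 and 0.0717). In Hoil mice Tmem267 also stood below WT, at -1.03 and -0.81, again without passing in limma (adjusted p = 0.333 and 0.202). All tested neighbours of Nnt lie on one side of Nnt.

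Near Rell1, by contrast, 3 of 3 neighbours passed in both fractions, all in the direction of Rell1. They were 5830416I19Rik, 76.0 kb away (3.91 and 3.96), Pgm2, which encodes a phosphopentomutase (0.59 and 0.63), and Tbc1d1, which encodes a Rab GTPase-activating protein (0.23 and 0.21). The transcript 5830416I19Rik stood at 2.84 ± 0.382 CPM (SD, n = 3) in Sharpin samples of the low fraction and 0.137 ± 0.066 CPM in WT. Around Olfr56, 5 of 13 neighbours passed in the low fraction and 6 in the high fraction, and every one was lower, as Olfr56 was. Ifi47, at -37.2 kb and partly overlapping in GENCODE, fell by 0.99 and 1.05, from 115 ± 4.80 to 57.1 ± 6.09 CPM in the low fraction. Tgtp2, another interferon-inducible GTPase gene, fell by 0.97 and 1.20, and Zfp62, on the other side, by 0.43 and 0.42.

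Around Slc36a1 the calls went both ways, 4 higher and 2 lower of 11 in the low fraction, and 4 higher and 3 lower in the high fraction. Lyrm7, a mitochondrial assembly factor (1.55 and 0.87), Tnip1, an inhibitor of NF-κB signalling (0.33 and 0.35), Anxa6 (0.47 and 0.32) and Ccdc69 (0.49 and 0.57) were higher on one side, while Gm2a, a lysosomal lipid-binding protein (-0.41 and -0.50), was lower closer by and G3bp1 (-0.37 and -0.45) on the other side. The nearest on either side, Slc36a3 at -52.6 kb and Atox1 at 210 kb, did not pass, and Atox1 was at 0.03 and 0.12. Around Cln3 and Apobr, 7 of 36 passed in the low fraction and 6 in the high fraction. The largest was Gdpd3, 177 kb away, which rose by 5.57 and 5.16, from 3.21 ± 0.146 to 177 ± 79.6 CPM in the low fraction. The nearest on either side, Eif3c at -4.84 kb and Sgf29 at 59.3 kb, were at 0.05 and 0.04 and at 0.09 and 0.03. Around Chic1, limma and edgeR called 0 of 3 neighbours in the low fraction (2 at an unadjusted p under 0.05). In the high fraction each called 1, which was lower in limma, as Chic1 was. The tested gene nearest to Chic1, Jpx, 84.5 kb away, was at -0.30 and -0.13 (adjusted p = 0.421 and 0.761).

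**Figure D4:**
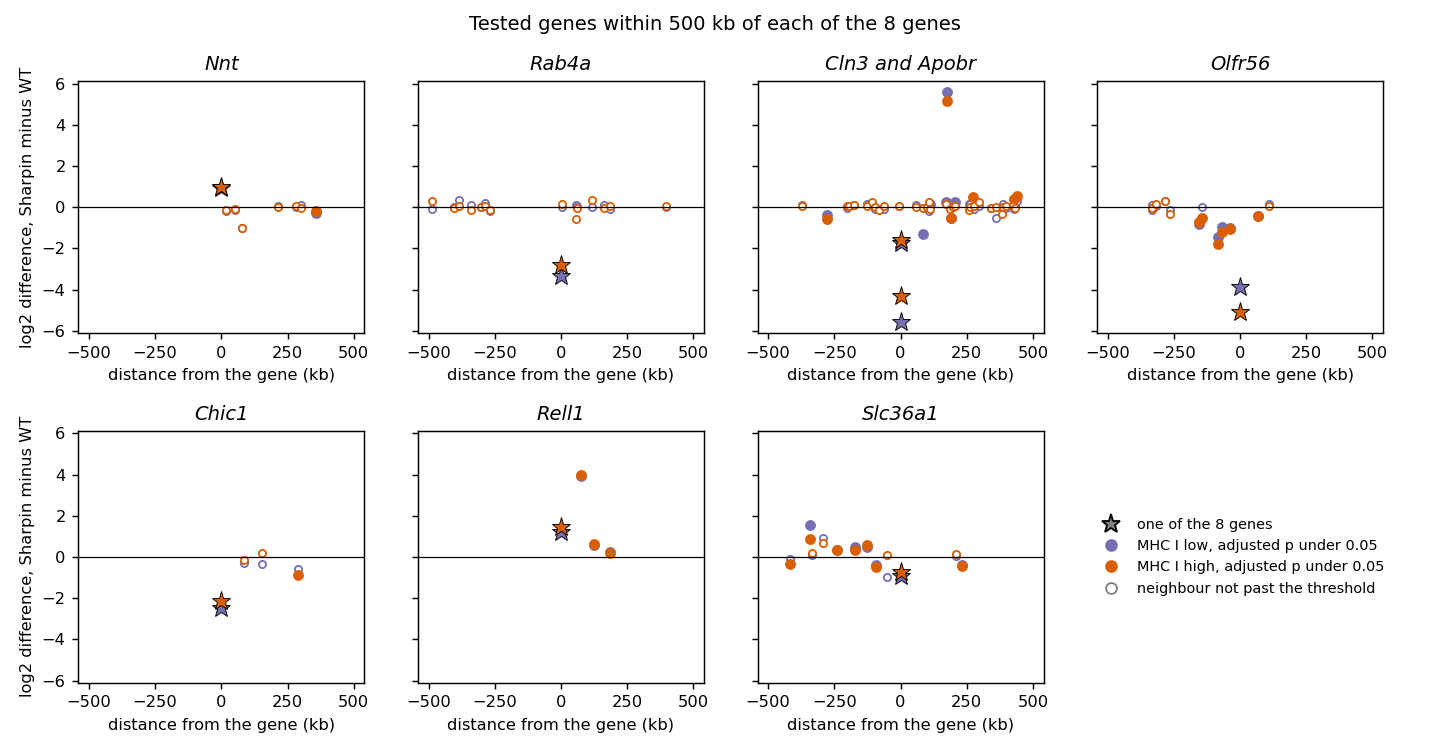
Sharpin minus WT log2 difference of the tested genes within 500 kb of each of the 8 genes against their distance in kb, with the 8 genes as stars at 0, MHC I low in purple, MHC I high in orange and filled points for an adjusted p under 0.05 in limma. The neighbours of Rab4a lie near 0, those of Nnt do except 1 at -1.01, all 3 neighbours of Rell1 lie above 0, and filled points near Olfr56 all lie below 0.

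Genes related to the members by function, family or place in the genome were taken as lists. For Nnt these were mitochondrial NADPH and peroxide disposal, and for Rab4a the early and recycling endosome. Lysosome and ceroid lipofuscinosis genes were taken for Cln3, and lysosomal amino acid transport and mTORC1 docking for Slc36a1. Lipoprotein uptake receptors were taken for Apobr, RELT family and partner kinases for Rell1, and the paralog for Chic1. The Olfr56 list, interferon-inducible GTPases, includes its neighbours and is not a list of genes that work with it. Of 98 listed genes, 95 were tested. In Sharpin against WT, 8 rose and 7 fell in the low fraction (15.8%, median 0.01) and 1 rose and 10 fell in the high fraction (11.6%, median -0.02), with medians of 0.01 and 0.00 over all genes. In Hoil against WT, limma called 0 of 95 in the low fraction (12 at an unadjusted p under 0.05, 0 in edgeR), and 4 rose and 3 fell in the high fraction (7.37%). Over all genes, limma called 12.2% (low) and 8.62% (high) in Sharpin against WT, and 0.985% and 6.65% in Hoil against WT. The counts of single lists below stand beside these same shares.

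Of 17 genes in the Nnt list, 2 rose in Sharpin samples of the low fraction, Gsr, which encodes glutathione reductase (0.28, adjusted p = 0.015), and Prdx5, a peroxiredoxin gene (0.20, adjusted p just under the threshold), and 1 fell in the high fraction, the mitochondrial thioredoxin reductase Txnrd2 (-0.41, adjusted p = 0.024). Of 19 in the Rab4a list, 2 rose and 1 fell in Sharpin samples of the low fraction and 1 fell in the high fraction, none by more than 0.22, whereas in Hoil samples of the high fraction the endosome tether Eea1 rose by 0.93 (adjusted p = 7.95e-05). Of 15 in the Cln3 list, 1 rose in Sharpin samples of the low fraction, the protease gene Ctsd (0.22, adjusted p = 0.0128), and limma and edgeR called 0 in the high fraction (4 at an unadjusted p under 0.05). Of 19 in the Slc36a1 list, 2 rose and 2 fell in Sharpin samples of the low fraction and 2 fell in the high fraction. The glutamine transporter gene Slc38a2 fell in both (-0.36, adjusted p = 0.0022, and -0.25, adjusted p = 0.0201).

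Of 10 tested lipoprotein receptor genes, Sort1, a sorting receptor, fell in both Sharpin fractions (-0.67, adjusted p = 0.00189, and -0.78, adjusted p = 0.00013), and Lrp10 rose in the low fraction and Lrp8 in the high fraction. Of 9 interferon-inducible GTPases, 3 fell in the low fraction and 5 in the high fraction and 0 rose, and Tgtp2 and Ifi47, which lead this group, are neighbours of Olfr56. In Sharpin mice Gbp3, which lies elsewhere, fell by 0.60 (adjusted p = 0.00151) and 0.46 (adjusted p = 0.00788). In Hoil mice limma called 0 of the 9 in the low fraction and only Irgm2 in the high fraction (-0.37, adjusted p = 0.0152). Every gene of the list nevertheless stood lower than in WT there, with 6 of 9 at an unadjusted p under 0.05 in each fraction. The list median was -0.33 and -0.24 in Hoil mice in the low and high fractions, against -0.15 and -0.32 in Sharpin mice. Of the 5 genes on the Rell1 list, limma and edgeR called 0 in either Sharpin fraction (1 and 0 at an unadjusted p under 0.05).

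Rab4b stood at 73.9 ± 0.810 CPM in WT and 82.4 ± 2.00 CPM in Sharpin samples of the low fraction (adjusted p = 0.0768) and per kilobase was far above Rab4a (63.1 against 9.50 CPM per kb in WT). Chic2, at 68.5 ± 4.75 and 74.2 ± 5.01 CPM, differed by 0.12 (adjusted p = 0.282). Rell2 and Relt differed by 0.16 and -0.02 in the low fraction (adjusted p = 0.725 and 0.888). Among the Slc36a1 relatives, Slc36a4 was lower in Sharpin mice, by -0.33 in the low fraction (adjusted p = 0.0846) and by -0.40 in the high fraction (adjusted p = 0.0252), Slc36a3 held under 1 CPM in each group and differed by -0.98 (SE 0.707, adjusted p = 0.401) and 0.08 (adjusted p = 0.96), and Slc36a2 did not pass the filter.

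The pattern over the 18 samples was shared among the members. The absolute Pearson correlation of log2 CPM between pairs of members ran from 0.755 to 0.975 (median 0.93, 28 pairs) over samples that include the Sharpin groups that chose them, and with group means removed it ran from -0.518 to 0.584 with a median of 0.00302. Among all tested genes, those most like a member were often other members. Cln3 and Apobr were each other's closest (r = 0.975), and Rab4a was among the 3 closest of Cln3, Apobr, Olfr56, Chic1 and Slc36a1. The closest to Rab4a and Olfr56 was Tnfrsf26 (r = 0.992 and 0.953), the closest to Rell1 was its neighbour 5830416I19Rik (r = 0.957), and the closest to Nnt was Erdr1 (r = 0.933), followed by the histone genes H2bu2 (r = 0.906) and H1f3 (r = 0.875). These are 18 samples of 9 mice, and the correlations are descriptions.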

How the data were processed

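Reads of 18 libraries were mapped to mm10 and counted per gene with featureCounts by the authors, who deposited raw counts, 1 column per library. Settings for strand and for reads matching several places are not given in the sources used here. The sample files and the table of the series held the same counts in 18 of 18 samples. The 27179 gene identifiers were matched to RefSeq GRCm38.p6 (25275 found). The 8 members and the gene lists were chosen with earlier results of these data known.

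The filter kept 12798 genes, those reaching 0.5 CPM in 3 or more samples, and left out chromosome Y, Xist, predicted genes and genes with no official symbol. Log2 CPM (TMM, prior count 1) were fitted with limma 3.58.1 in R 4.3.3, with 6 group means, sample weights (0.628 to 2.42), the mouse as a random block (correlation 0.224) and an abundance trend, robust. This follows the design of the study. Same-numbered samples of a genotype come from 1 mouse, and such pairs deviated from their group means with correlations of 0.0702 to 0.256. Adjusted p-values are Benjamini-Hochberg over 12798 genes, 0.05 being the threshold. Contrasts that chose the members carry no test. Replicates differed beyond sampling noise (chi-square per degree of freedom 5.26 to 16.7), and nothing marked 2 samples as one library. edgeR 4.0.16 and DESeq2 1.42.0 were alternatives, and all 3 tools were tested on simulated data. Named by rule were the members, the nearest tested gene on each side, the 3 genes most correlated with each member, relatives, up to 4 called genes a list, genes that check labels and sort, and the 15 most separated other genes outside distal chromosome 7. Other neighbours, Dmbt1 and Tmem267 were named after their values were seen. Counting intervals are exact and cover counting error only. Start windows came from RefSeq. One neighbour is not reported here.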

Additional observations from a re-analysis of the deposited data

How the results depend on the processing

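All alternatives kept the sign of the Sharpin difference in every member that could be fitted, with ranges of 0.87 to 1.01 in the low fraction for Nnt and -3.46 to -3.20 for Rab4a, and the widest for Olfr56 in the high fraction (-6.87 to -3.70) and Apobr in the low fraction (-6.14 to -4.40), where a prior count of 3 gave the values nearest 0. The choice of the members by this difference fixed its sign, so the kept sign is a description and no support. At least 10 counts in every sample removed Apobr and Olfr56, so no median over 8 genes exists there. Nnt was called in Hoil against WT in 20 of 20 alternatives in both fractions (adjusted p up to 0.0182 and 0.00106). Against 1 member called in the low fraction, edgeR and DESeq2 called 2 by adding Chic1. Against 1 in the high fraction, the minimum of 10 counts and a fit on only the groups compared called 2 by adding Slc36a1 (adjusted p = 0.034 and 0.0356), and leaving out replicates gave 1 to 2. Against 3 in WT between fractions, leaving out replicates gave 1 to 3. Against 2 in Hoil mice, the minimum of 10 counts gave 1, since Apobr was not tested, while edgeR, DESeq2, a prior count of 3 and a fit on only the groups compared gave 3 by adding Olfr56, and leaving out replicates gave 2 to 3. The replicate block by mouse number gave 1, 1, 2, 2 and 0 members called in the 5 comparisons, and no replicate block gave the same counts. Both cost Rell1 its call in WT (adjusted p = 0.141 and 0.0929). Signs turned in values near 0 and not called. Leaving out single mice moved Rab4a between -0.18 and 0.07 in the low and -0.15 and 0.05 in the high fraction, Cln3 in the high fraction between -0.01 and 0.11 (also -0.01 with Xist as covariate), and Olfr56 in the high fraction between -0.01 and 0.14. List genes called in the high fraction were 2 in Hoil and 5 in Sharpin with edgeR against 7 and 11, and neighbours in the high fraction were 17.9% within 1000 kb. The causes were not tested.

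Over all genes, calls in Hoil against WT in the high fraction were 851 in limma, 404 in edgeR, 484 in DESeq2, 453 without a filter, 314 without sample weights and 134 to 1219 without single mice. In the low fraction 126 became 198 in DESeq2, 209 with Xist as covariate and 62 to 222 without single mice. Calls in the difference of the change were 51 in limma, 1 in edgeR and 20 in DESeq2. Depth limits Apobr and Olfr56 in Sharpin mice, where at most 10 reads a library leave the fold open.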

Other observations

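Among the 15 most separated genes outside the members and outside distal chromosome 7, the heat shock genes Hspa1a and Hspa1b had Hoil values further from WT than the rest. Both stood lower in Sharpin than in WT mice (-2.19 and -2.53 for Hspa1a, -2.34 and -2.26 for Hspa1b, in the low and high fractions), while their Hoil values were 1.86 and 1.98 and 1.70 and 1.58 log2 units above WT, none past the threshold in limma (adjusted p between 0.0949 and 0.359). Both genes are near-identical copies on chromosome 17, and counting may split their reads.

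Of the same 15, 4 were higher in Sharpin mice (5830416I19Rik, the Wnt antagonist Sfrp4, the collagen hydroxylase P4ha2 and the histone H2bu2) and 11 lower. Dcaf12l1, Pls3, Cask and Mid1 lie on chromosome X, like Chic1, and all 4 were lower (from -2.40 to -1.06 over both fractions). All 3 WT mice had the female pattern and 2 Sharpin mice the male pattern, and the part of sex in these X-linked differences was not tested. Of the genes whose Sharpin samples lay apart from all others, chromosome 7 held 27 of 986 tested (2.74%), the highest share, chromosome X 7 of 409 (1.71%), chromosome 11 17 of 1072 (1.59%), chromosome 13 9 of 487 (1.85%), chromosome 8 1 of 667, which was Rab4a, and chromosome 14 0 of 574. Over all tested genes, 0.336% lay above and 0.664% below the other samples. The counts by chromosome include the 8 members, which were chosen by their Sharpin level.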
